A study of Mus musculus with 4 samples.

Results

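Tetraspanins and the TM4SF proteins are small proteins that cross the membrane 4 times, and 36 of the 56953 gene rows counted in these mouse livers code for them or lie antisense to them. The members were all genes whose symbol begins with Tspan or Tm4sf and a digit, with the tetraspanins named otherwise (Cd9, Cd37, Cd53, Cd63, Cd81, Cd82, Cd151, Upk1a and Upk1b). Of the 36, 34 were protein coding and 2, Tspan32os and Tspan2os, were antisense RNAs. The rule used names alone and no measured value. The data are 4 libraries, made with QuantSeq (sequencing of the 3' ends of polyadenylated transcripts), from livers of mice 2 months old on a normal diet. The 2 control libraries come from Ubc13 flox/flox mice labelled Alb negative, and their genotype label is WT although they carry the flanked alleles. The 2 deletion libraries come from Ubc13 flox/flox mice labelled Alb positive, with a hepatic Ubc13 deletion. Alb is read here as Cre recombinase driven by albumin, which is active in hepatocytes, so other liver cells keep the gene. Ubc13 is the protein of Ube2n, an enzyme that builds lysine 63-linked ubiquitin chains, and the title of the series places its loss in fatty liver disease, mitophagy and cell death. The labels do not say that the replicates are separate animals, so p-values measure only the spread between these samples.

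As background, tetraspanins act by binding other membrane proteins and each other, which gathers integrins, proteases, growth factor precursors and receptors into patches of membrane. Cd9, Cd81 and Cd63 also travel in extracellular vesicles, which hepatocytes and other liver cells release, and Cd81 is an entry receptor of hepatitis C virus on human hepatocytes. The TspanC8 group of tetraspanins carries the sheddase ADAM10 out of the endoplasmic reticulum and directs which substrates it cuts. TM4SF proteins share the overall shape but form a family of their own. Ubiquitin and the endosomal sorting machinery act on several of these proteins on their way to the lysosome.

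Total counts were 16270424 to 17800138 per library. Ube2n had 41.2 and 44.9 CPM (the counts-per-million unit, scaled by TMM factors) in control replicates 1 and 2 and 5.87 and 5.96 CPM in deletion replicates 1 and 2. The labels do not say whether the counted 3' end lies inside the deleted part, so this level cannot check the labels fully. Deletion replicate 1 stood apart in sex-linked RNA: it had 0 counts of Ddx3y, Uty, Kdm5d and Eif2s3y, genes on the Y chromosome, where the other libraries had 206 to 1027 each. Xist, made from the inactive X chromosome, had 9 and 2 counts in the controls and 9590 and 3896 in deletion replicates 1 and 2, so deletion replicate 2 held both Xist and Y-linked RNA. Every difference between the groups given here runs along with that difference, and its part in the results was not tested. Hepatocyte markers summed to 154890 to 160566 CPM in control livers against 63093.8 to 67029.4 CPM after deletion (0 of 10 higher, 4 lower). Most of that sum was Alb (118882 and 114798 against 45245.9 and 42825.5 CPM), which did not pass (edgeR, adjusted p = 0.0612). Ttr, Serpina1c, Pck1 and Cyp2e1 were called, while Apoa1, Cps1, Apoc3, Hnf4a and Cyp3a11 had log2 fold changes of -0.70, -0.74, -0.22, -0.21 and -0.08 and were not. The 9 mitochondrial transcripts summed to 53572.7 to 54927.3 and 32940.4 to 34382.1 CPM (0 higher, 3 lower). The 3 called, mt-Co2, mt-Co3 and mt-Atp6, were the least abundant, with control means of 126, 55.2 and 139 CPM. All 10 hepatocyte markers were detected in all 4 libraries. In bulk tissue, fewer cells of a type and less RNA per cell cannot be told apart.

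Of the 36 members, 27 passed the filter on low counts and were tested. Of these, Cd9, Cd63, Tspan17, Tm4sf4 and Tspan9 were higher in the deletion livers, Tspan33 was lower, and 21 did not pass (edgeR quasi-likelihood test, Benjamini-Hochberg adjusted p under 0.05 over 14600 genes). Among all genes tested, 6.57% were called, 4.41% higher and 2.16% lower. Of the genes called, 67.2% were higher, or 88.6% when library sizes alone set the scale. The tested members had a median log2 fold change (deletion over control) of 0.19, where the median of all tested genes was -0.0036. The groups did not overlap for 15 of the 27, against 56.0% of all tested genes, and 11 of the 27 had an unadjusted p under 0.05, against 24.4%. By role, the median log2 fold change was 0.47 over the 5 web tetraspanins, 0.31 over the 5 tested TspanC8 genes, 0.64 over the 3 leukocyte genes and -0.11 over 10 others. Tspan32 passed the filter only through the deletion libraries, where it was higher, so these counts describe the tested members and are no support for a shift of the family.

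The count of called members moved with the setting, as did that of all genes. It was 6 with RLE factors (6.58% of all genes called), DESeq2 (10.8%) and limma-voom (6.26%), 8 with library sizes alone (12.1%) and 7 without the filter on low counts (10.8%), where 2 of them were lower (4.39%). Without control replicate 1 there were 7 (11.1%), with 6 higher (7.08%) and 1 lower (4.03%), and without control replicate 2 there were 8 (13.4%), with 6 higher (7.63%) and 2 lower (5.78%). Without deletion replicate 1 there were 4 (3.24%), with 4 higher (2.2%) and 0 lower (1.04%), and without deletion replicate 2 there were 2 (2.24%), with 2 higher (1.59%) and 0 lower (0.654%). Cd9 and Cd63 were called in each of these settings that used all 4 libraries. The fits with 1 library left out have no replicate in 1 group, so their counts only describe the setting.

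**Figure D1:**
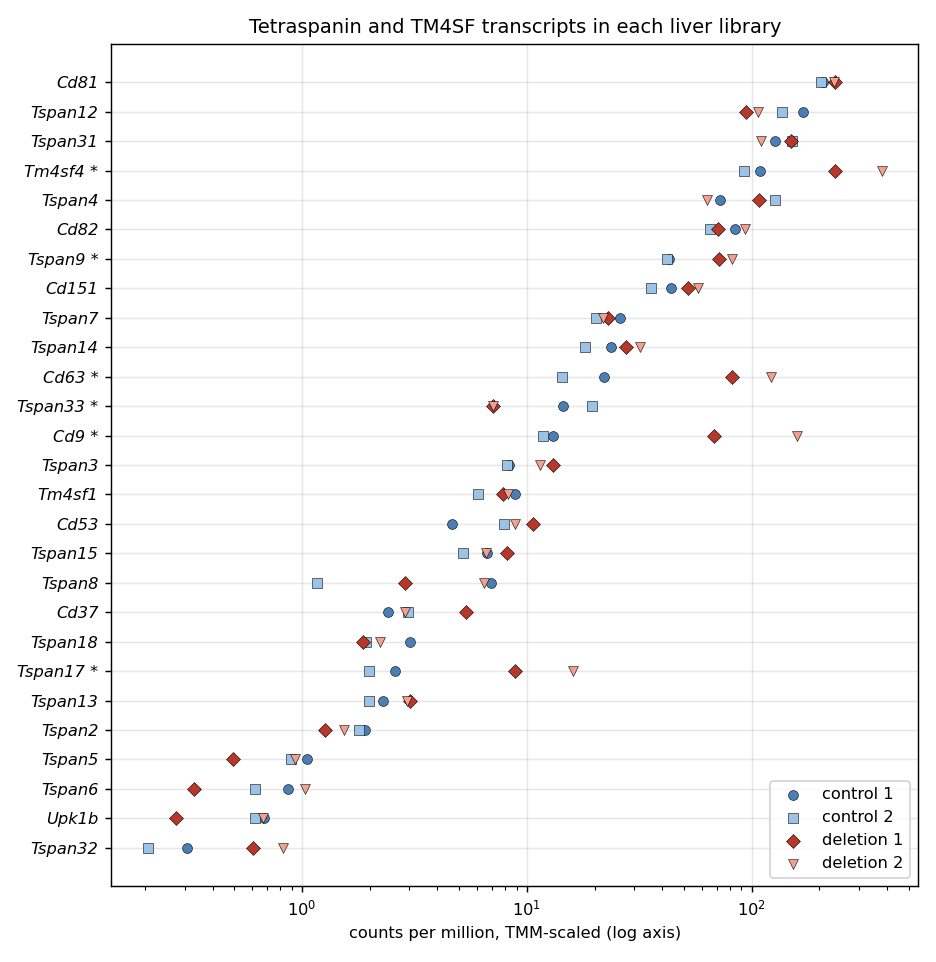
Level of each of the 27 tested members in every library, in TMM-scaled CPM on a log axis, ordered by the control mean; blue symbols are the 2 control libraries, red symbols the 2 deletion libraries, and an asterisk marks the 6 genes with an adjusted p under 0.05. Cd9 and Cd63 sat between 11.7 and 21.9 in the controls and between 68.2 and 158 in the deletion libraries, while Cd81 lay between 204 and 234 in all 4.

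By group mean, Cd81 was the most abundant member in the controls and Tm4sf4 in the deletion livers. In deletion replicate 1 Cd81 and Tm4sf4 were nearly level, at 234.1 and 233.7 CPM. In deletion replicate 2 they had 233 and 379 CPM. Because QuantSeq counts 1 tag at the 3' end per transcript, CPM does not grow with transcript length, and levels of different genes are compared on that scale. Summed over the 36 members, the family had 1007 and 978 CPM in control livers against 1287 and 1536 CPM after deletion, a ratio of group means of 1.42. Without the called members the sums were 803 and 797 CPM in control livers and 816 and 772 CPM after deletion, which overlapped. Tm4sf4 made up 10.8% (exact Clopper-Pearson 95% interval 10.3 to 11.3) and 9.41% (8.94 to 9.90) of the family's counts in the controls, and 18.2% (17.7 to 18.7) and 24.7% (24.2 to 25.2) in deletion replicates 1 and 2. Cd9 made up 1.30% (1.13 to 1.48) and 1.20% (1.03 to 1.39) in the controls and 5.30% (5.02 to 5.59) and 10.3% (9.97 to 10.7) in the deletion libraries. Tspan12 made up 16.8% (16.2 to 17.4) and 13.9% (13.3 to 14.5) in the controls and 7.29% (6.96 to 7.63) and 6.93% (6.64 to 7.22) in the deletion libraries, a smaller share. These intervals cover counting error only. In order of mean level, Cd9 stood at rank 13 of the family in the controls and 4 in the deletion livers, Cd63 at 11 and 5, Tspan17 at 21 and 13, and Tspan33 at 12 and 18.

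**Figure D2:**
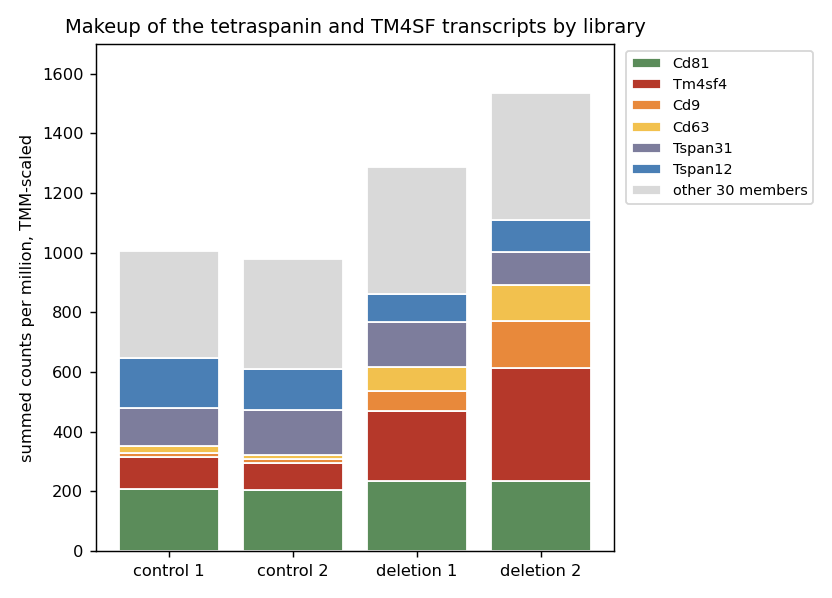
Summed level of the 36 members in each library, as stacked bars of TMM-scaled CPM from 0. Cd81, Tm4sf4, Cd9, Cd63, Tspan31 and Tspan12 are shown apart, and the other 30 members together in grey. The grey part holds the called members Tspan17, Tspan9 and Tspan33. The bars rise from 978 to 1007 in the controls to 1287 and 1536 in deletion replicates 1 and 2, and the Tm4sf4, Cd9 and Cd63 layers are taller in both deletion libraries.

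Among the 5 broadly expressed tetraspanins of the membrane web, Cd9 and Cd63 rose and Cd81, Cd82 and Cd151 did not pass. Cd9 (chromosome 6, 125460266 to 125494791, minus strand of GRCm38), which binds integrins and the precursor of the growth factor HB-EGF and is a surface marker of extracellular vesicles, had 13.1 and 11.7 CPM in control livers against 68.2 and 158 CPM in deletion replicates 1 and 2, from 212, 171, 1243 and 3082 counts. Both deletion libraries lay above both controls, and replicate 2 was more than double replicate 1. The log2 fold change was 3.19 ± 0.41 (SE, adjusted p = 0.0129), the largest absolute value among the 27 tested members. Cd63 (chromosome 10, 128900989 to 128912822, plus strand of GRCm38), a tetraspanin of late endosomes, lysosomes and the vesicles they release, had 21.9 and 14.3 CPM in control livers against 81.9 and 122 CPM after deletion. The groups did not overlap, and again replicate 2 was the higher of the deletion libraries. Its log2 fold change was 2.49 ± 0.29 (adjusted p = 0.00973).

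Cd81, the hepatitis C virus receptor named above, had 207 and 204 CPM in control livers against 234 and 233 CPM after deletion. The groups did not overlap, but the difference was small, with a log2 fold change of 0.18 ± 0.14 (adjusted p = 0.494). Cd82, known as a suppressor of metastasis, had 84.3 and 64.9 CPM in control livers against 71.1 and 93.5 CPM after deletion, which overlapped (0.14 ± 0.21, adjusted p = 0.737). Cd151, which binds laminin-binding integrins, had 43.9 and 35.5 CPM in control livers against 52.2 and 57.4 CPM after deletion, and did not pass (0.47 ± 0.17, adjusted p = 0.160). With library sizes alone as the scale its adjusted p was 0.0475, in a setting that moved the median of all genes from -0.0036 to 0.29.

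Over all 11 alternative settings, Cd9 and Cd63 had log2 fold changes from 2.46 to 3.66 and from 2.17 to 2.83. They kept their calls in each setting that used all 4 libraries. Among these, the highest adjusted p was 0.0294 for Cd9 and 0.0354 for Cd63, in the edgeR fit with a block for replicate number. The lowest, 2.62e-45 and 1.42e-29, came from the edgeR fit without the filter on low counts, which called 2768 genes in all. Without deletion replicate 1, Cd9 was at 3.66 and Cd63 at 2.74, and without deletion replicate 2 they were at 2.46 and 2.17. Deletion replicate 2 held 3896 Xist counts against 9 and 2 in the controls, so the first of these fits still holds a sex-linked difference.

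**Figure D3:**
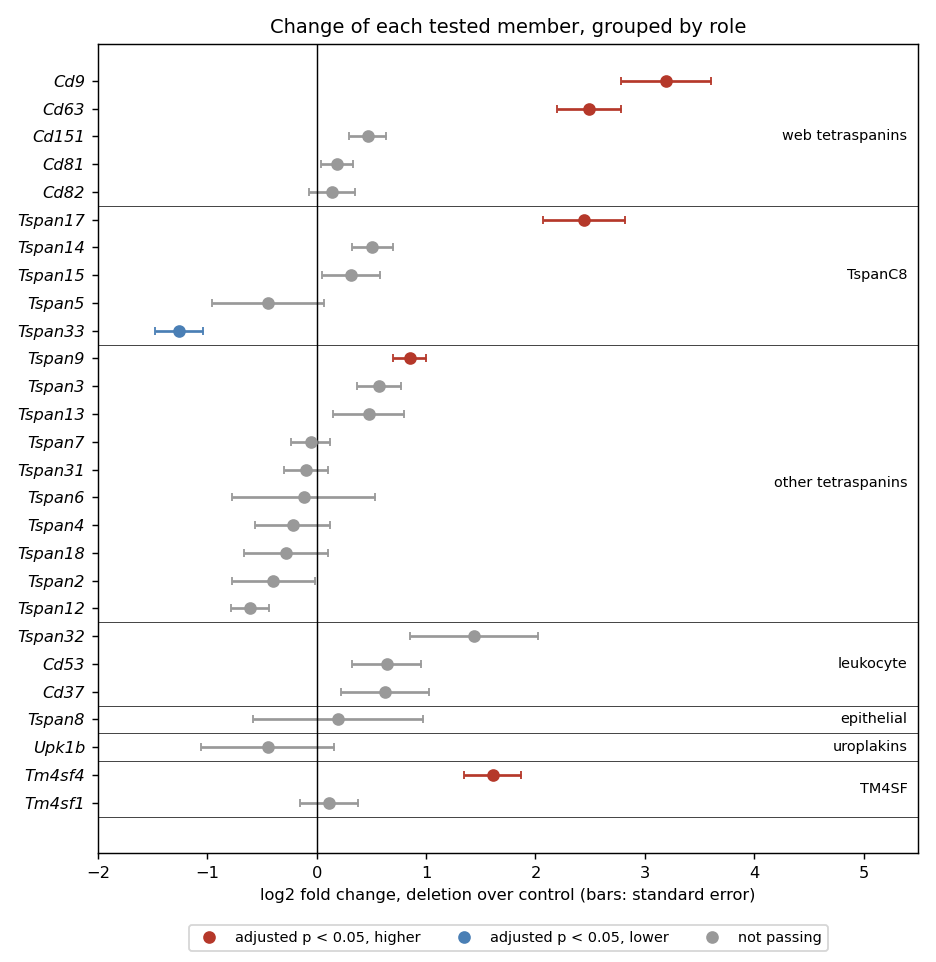
Log2 fold change of each tested member, deletion over control, with its standard error, grouped by role; red points rose, blue points fell and grey points did not pass the test. Cd9, Cd63, Tspan17, Tm4sf4 and Tspan9 lie to the right at 3.19, 2.49, 2.44, 1.61 and 0.85, and Tspan33 lies to the left at -1.26.

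The 6 TspanC8 genes, the partners of ADAM10, did not move as 1 group: of the 5 tested, Tspan17 rose, Tspan33 fell, and Tspan5, Tspan14 and Tspan15 did not pass. Tspan17 (chromosome 13, 54789377 to 54796776, plus strand of GRCm38) had 2.59 and 1.99 CPM in control livers against 8.89 and 16.1 CPM after deletion, from 42, 29, 162 and 313 counts. It was low in both controls and several times higher in both deletion libraries, with a log2 fold change of 2.44 ± 0.37 (adjusted p = 0.0204). Tspan33 (chromosome 6, 29694222 to 29718559, plus strand of GRCm38), also known from developing red blood cells, had 14.4 and 19.4 CPM in control livers against 7.08 and 7.04 CPM after deletion. The deletion libraries were nearly equal and below both controls, with a log2 fold change of -1.26 ± 0.22 (adjusted p = 0.0293). Tspan14, the most abundant of the group, was at 0.51 ± 0.19 (adjusted p = 0.164), Tspan15 at 0.31 ± 0.27 (0.534) and Tspan5 at -0.44 ± 0.51 (0.658). Tspan10 had 1 count over the 4 libraries and was not tested. Without deletion replicate 1 and without deletion replicate 2, Tspan17 was at 2.80 and 1.95, and Tspan33 at -1.27 and -1.26. Neither gene passed in the edgeR fit with a block for replicate number (adjusted p = 0.0579 and 0.0736).

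In the protease's own list, Adam10 and 5 of its 13 textbook substrates rose and 1 fell. Adam10 had 30.4 and 31.8 CPM in control livers against 52.8 and 59.9 CPM after deletion, a log2 fold change of 0.86 ± 0.15 (adjusted p = 0.0284). Among the substrates, the growth factor precursor Btc (betacellulin) was at 3.12 ± 0.31 (adjusted p = 0.00696), the membrane chemokine Cxcl16 at 1.88 ± 0.21 (0.00886) and E-cadherin (Cdh1) at 1.75 ± 0.18 (0.0070). The amyloid precursor App was at 0.96 ± 0.16 (adjusted p = 0.0268) and the hyaluronan receptor Cd44 at 0.74 ± 0.16 (0.0471). Il6ra, the interleukin 6 receptor, fell from 193 and 174 CPM to 55.9 and 84.6 CPM (-1.39 ± 0.23, adjusted p = 0.0248). The list of 14 had a median of 0.69, with 6 higher, 1 lower and 7 not passing, where 4.41% and 2.16% of all genes were called in those directions. With a block for replicate number in the edgeR fit, Adam10, App, Il6ra and Cd44 did not pass (adjusted p = 0.0752, 0.0579, 0.0568 and 0.124). With deletion replicate 1 or 2 left out, Adam10 was at 0.93 or 0.76, App at 1.06 or 0.84 and Il6ra at -1.13 or -1.72. Cd44 also lost its call with DESeq2 (adjusted p = 0.0510) or limma-voom (0.0554), and was at 0.69 to 0.78 with 1 library left out.

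**Figure D4:**
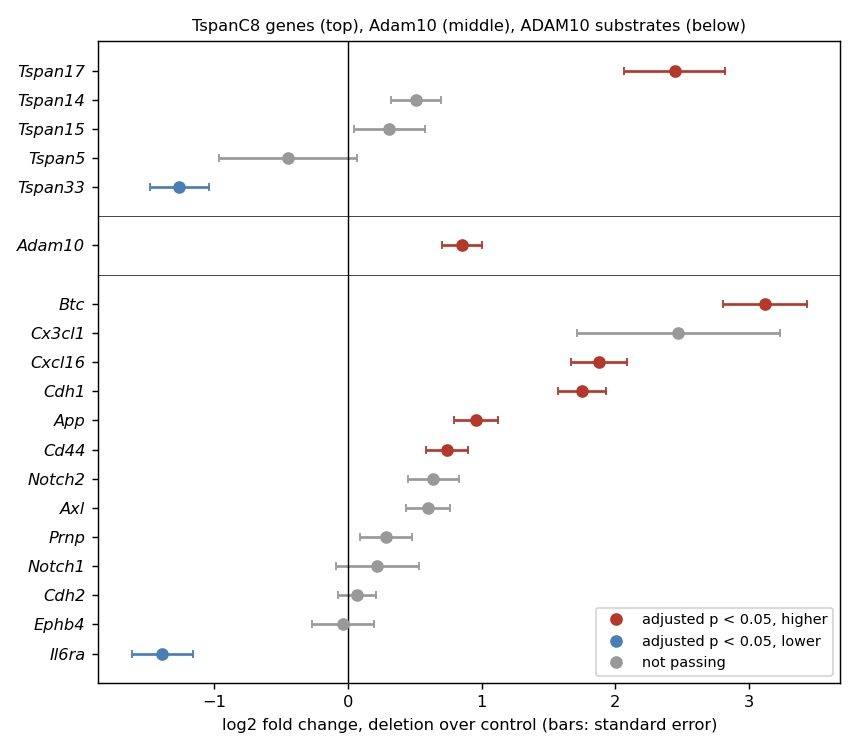
Log2 fold change, deletion over control, with its standard error, for the 5 tested TspanC8 genes, Adam10 and 13 substrates of ADAM10; red points rose, blue points fell and grey points did not pass. Tspan17 and Tspan33 lie at 2.44 and -1.26, Adam10 at 0.86, and Btc and Il6ra mark the ends of the substrate list at 3.12 and -1.39.

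Of the 11 tetraspanins outside these groups, 10 were tested and 1, Tspan9, rose. Tspan9 (chromosome 6, 127961396 to 128143594, minus strand of GRCm38), a tetraspanin of platelets that is also found in other cells, had 43.1 and 41.8 CPM in control livers against 71.6 and 81.7 CPM after deletion. The controls were close together and both deletion libraries were above them (log2 fold change 0.85 ± 0.15, adjusted p = 0.0293). It was at 0.93 without deletion replicate 1 and at 0.75 without deletion replicate 2. In the edgeR fit with a block for replicate number it did not pass (adjusted p = 0.0818). Platelet markers summed to 7.75 to 8.50 CPM in control livers against 7.66 to 10.04 CPM after deletion (2 of 5 tested, 0 called by edgeR, 0 unadjusted), and their part in the result was not tested.

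Tspan12, a co-receptor of Frizzled 4 for Norrin, was the second most abundant member in the controls, with 169 and 136 CPM against 93.9 and 106 CPM after deletion. The groups did not overlap, and the log2 fold change of -0.61 ± 0.17 did not pass (adjusted p = 0.1001). It passed in the edgeR test without the filter on low counts (adjusted p = 0.0290), and was at -0.44 and -0.76 without control replicates 1 and 2. Its receptor Fzd4 was at 0.05 ± 0.24 (adjusted p = 0.932).

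Tspan31 and Tspan4 were abundant and overlapped between the groups. Tspan31, which is amplified together with Cdk4 in sarcomas, had 127 and 151 CPM in control livers against 150 and 110 CPM after deletion (-0.10 ± 0.20, adjusted p = 0.813, and 0.19 with library sizes alone). Tspan4, a tetraspanin of migrasomes, the vesicles that moving cells leave behind, had 72.5 and 127 CPM in control livers against 108 and 63.3 CPM after deletion (-0.22 ± 0.34, adjusted p = 0.754, and 0.066 with library sizes alone). Its spread within each group was larger than the difference between the groups. Both genes end head-on against a neighbour: on GRCm38, the 3' end of Tspan31 (minus strand) shares 641 bases with that of Cdk4 (plus strand) on chromosome 10, from 127067280 to 127067920, and the 3' end of Tspan4 shares 292 bases with that of Chid1 on chromosome 7. The strand setting of the counting is not given in the sources used here, so counts of Tspan31 and Cdk4, or of Tspan4 and Chid1, may hold reads of the partner. Cd37 shares 13 bases with Tead2 at its 3' end. Cd81, Cd151, Tspan2 and Tspan32 share bases with a gene on the other strand at their 5' end, away from the counted 3' end. The partners of Tspan2 and Tspan32, Tspan2os and Tspan32os, had 0 counts. Cdk4 was at 0.15 ± 0.16 (adjusted p = 0.620).

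The remaining 6 tested members of this group had small values or small differences. Tspan7, an X-linked gene known from neurons, was at -0.05 ± 0.18 (adjusted p = 0.890, and 0.24 with library sizes alone) with 20.3 to 26.1 CPM in all 4 libraries. Tspan3 was at 0.57 ± 0.20 (adjusted p = 0.154), and passed with library sizes alone (0.0446). Tspan13, Tspan18, Tspan2 and Tspan6 had mean levels of 2.55, 2.25, 1.62 and 0.709 CPM and log2 fold changes of 0.48, -0.28, -0.40 and -0.12, with adjusted p from 0.427 to 0.939, and Tspan18 and Tspan6 turned to 0.012 and 0.18 with library sizes alone. Tspan11 had 3 counts in deletion replicate 1 and 0 in the others, and was not tested.

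The 3 tetraspanins of leukocytes were positive in sign and did not pass. Cd53, found on most white blood cells, had 4.62 and 7.89 CPM in control livers against 10.6 and 8.84 CPM after deletion (0.64 ± 0.31, adjusted p = 0.277). It was at 0.30 without control replicate 1 and at 1.07 without control replicate 2. Cd37, mainly of B cells, was at 0.62 ± 0.40 (adjusted p = 0.398). Tspan32, of blood-forming cells, had 5, 3, 11 and 16 counts and was at 1.44 ± 0.58 (adjusted p = 0.201). Lymphocyte markers summed to 11.3 to 20.5 CPM in control livers against 20.7 to 31.6 CPM after deletion (8 of 12 tested, 0 called by edgeR, 1 with an unadjusted p under 0.05). Without Ptprc, which most white blood cells express, they summed to 5.36 to 8.58 and 6.27 to 10.5 CPM, which overlapped. Neutrophil markers summed to 2.34 to 5.15 and 7.503 to 9.22 CPM (3 of 7 tested, 0 called by edgeR, 2 unadjusted, Ly6g at 0 counts). Markers of macrophages and monocytes summed to 191 to 235 and 707 to 882 CPM (5 of 12 higher, 0 lower). Without Cd74 and Cybb, which made up most of the sum after deletion, they summed to 137 to 170 and 205 to 269 CPM. Of the called markers, Cx3cr1, Trem2 and Gpnmb passed the filter on low counts only through the deletion libraries, where they were higher. The same holds for S100a8 and S100a9, the 2 neutrophil genes with an unadjusted p under 0.05, so these counts describe the tested markers only. Kupffer cell markers summed to 429 to 599 and 720.0 to 888 CPM (1 of 8 higher, 0 lower). The part of these cells in the levels of Cd53, Cd37, Cd63 and Cd9 was not tested.

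The epithelial tetraspanins and the uroplakins were scarce, and 0 of the 2 tested were called. Tspan8, of intestinal and ductal epithelium, had 6.90 and 1.17 CPM in control replicates 1 and 2 and 2.85 and 6.42 CPM in deletion replicates 1 and 2, so the groups overlapped (0.19 ± 0.78, adjusted p = 0.914). Without control replicate 1 it was at 1.98, and without control replicate 2 at -0.57. Tspan1, another epithelial tetraspanin, had 10 counts in control replicate 1 and 0 in the other 3 libraries, where 3 counts correspond to 0.206, 0.165 and 0.154 CPM. Tm4sf20 likewise had 8 counts in control replicate 1 alone. In the same library the ductal keratin Krt19 stood at 39.1 CPM against 2.91 to 3.96 CPM elsewhere, and the mucin Muc1 at 22.5 CPM against 1.21 to 1.80 CPM. The mesothelial list, which shares Krt19, summed to 57.1 CPM there, 10.7 CPM in control replicate 2 and 11.5 to 12.5 CPM after deletion (5 of 6 tested, 0 called by edgeR, 2 unadjusted). Upk1b, a plaque protein of the bladder lining, had 11, 9, 5 and 13 counts (-0.44 ± 0.61, adjusted p = 0.716), and Upk1a had 1, 6, 5 and 1 and was not tested. Their heterodimer partners Upk2 and Upk3a had 0 counts in every library. Another uroplakin, Upk3b, had 117, 34, 48 and 23 counts and did not pass (edgeR, log2 fold change -1.33 ± 0.63, adjusted p = 0.266).

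Of the 5 TM4SF genes, Tm4sf4 rose, Tm4sf1 did not pass, and Tm4sf5, Tm4sf19 and Tm4sf20 were below the filter. Tm4sf4 (chromosome 3, 57425314 to 57441677, plus strand of GRCm38), a protein of liver and intestine linked to the control of cell growth, had 109 and 92.1 CPM in control livers against 234 and 379 CPM after deletion, from 1762, 1342, 4258 and 7371 counts. Both deletion libraries were above both controls, with replicate 2 the higher, and the log2 fold change was 1.61 ± 0.26 (adjusted p = 0.0238). It was 1.91 without deletion replicate 1 and 1.22 without deletion replicate 2. In the edgeR fit with a block for replicate number Tm4sf4 did not pass (adjusted p = 0.0595). Tm4sf1, of endothelium and many tumours, overlapped between the groups at 6.04 to 8.81 CPM (0.11 ± 0.27, adjusted p = 0.846). Tm4sf5, a protein linked to the growth of liver tumour cells, had 9, 1, 8 and 0 counts, and Tm4sf19 had 2, 1, 0 and 0.

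In all 5 genes that rose, deletion replicate 2 was the higher of the deletion libraries, from 81.7 against 71.6 CPM for Tspan9 to 158 against 68.2 CPM for Cd9. Deletion replicate 2 was also the one with fewer Xist counts and with Y-linked counts. Markers of bile duct epithelium summed to 65.3 to 140 CPM in control livers against 1354 and 1945 CPM in deletion replicates 1 and 2 (2 of 9 tested higher, 0 lower). Most of the sum in the deletion libraries was Spp1 (osteopontin), which macrophages and injured hepatocytes also make. Without it the sums were 89.2 and 12.9 CPM in control replicates 1 and 2 and 29.5 and 31.8 CPM after deletion. Sox9, a duct and progenitor factor, was the other called marker (1.81 ± 0.23, adjusted p = 0.0124). The duct genes Krt19, Krt7 and Epcam were at 39.1, 5.54 and 6.65 CPM in control replicate 1, at 3.22, 1.78 and 1.78 CPM in control replicate 2 and at 0.713 to 3.96 CPM in the deletion libraries. Cldn7 had 4.62 and 0.274 CPM in control livers against 6.04 and 7.503 CPM after deletion and did not pass (1.45 ± 0.90, adjusted p = 0.386). Endothelial markers summed to 280 to 321 and 251 to 269 CPM and stellate cell markers to 517 to 703 and 561 to 569 CPM, with 0 called of 9 and of 10 (edgeR; at an unadjusted p under 0.05, 1 and 3). Of 6 proliferation genes, 1 was higher (sums 66.1 to 74.8 and 102 to 121 CPM). Which cells made the additional Cd9, Cd63, Tspan17 and Tm4sf4 RNA was not tested.

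**Figure D5:**
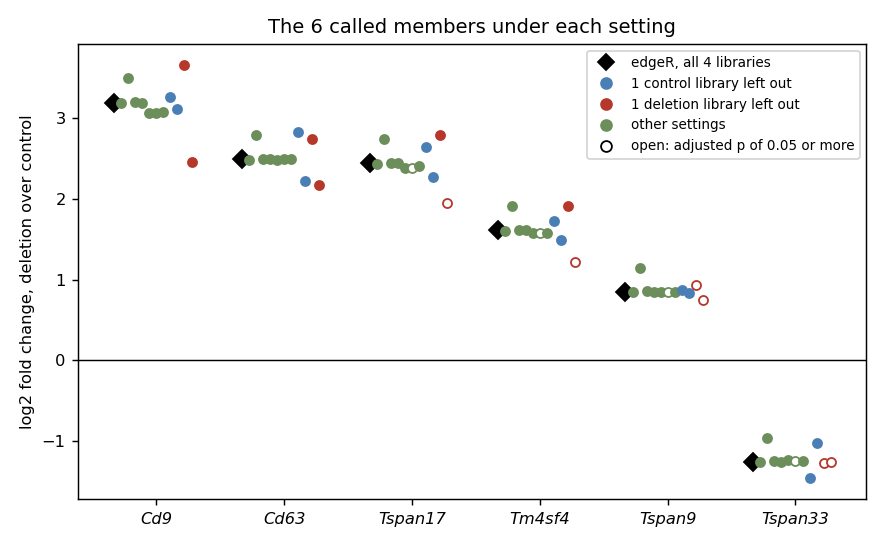
Log2 fold change of the 6 called members, deletion over control, in the edgeR test on all 4 libraries (diamonds) and in 11 other settings (circles: blue with 1 control library left out, red with 1 deletion library left out, green for the rest); open circles had an adjusted p of 0.05 or more. All circles of a gene lie on the same side of 0 as its diamond, and Cd9 and Cd63 have no open green circle. Fits with 1 library left out have no replicate in 1 group, so whether their circles are open or filled is not read.

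Several members lie next to each other in the genome, and neighbours had different values. Tm4sf1 and Tm4sf4 are 123325 bases apart on chromosome 3 and point away from each other, with log2 fold changes of 0.11 and 1.61. Cd151 and Tspan4 follow each other on the plus strand of chromosome 7 with a gap of 3766 bases, with values of 0.47 and -0.22. Tspan9 and Tspan11 are 7418 bases apart on chromosome 6, and Tspan11 had 3 counts where Tspan9 had 4203. Cd81 and Tspan32 on chromosome 7 are 33094 bases apart, and Cd82 and Tspan18 on chromosome 2 are 84605 bases apart, with no called gene in either pair. None of these differences between neighbours was tested.

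The 250 bases before the RefSeq start of each of the 6 called members are shown because these genes moved in the same contrast and their upstream stretches differ in makeup. They are read 5' to 3' on the gene's strand (RefSeq, GRCm38.p6), and for Tspan9 the most upstream of 4 listed starts is used. By GENCODE M21, the windows of Cd9, Tspan17, Tm4sf4 and Tspan9 reach into the start of the gene, and that of Cd63 lies inside its span. The windows are chr6:125494761-125495010 (minus strand) for Cd9, chr10:128909095-128909344 (plus) for Cd63, chr13:54789155-54789404 (plus) for Tspan17, chr3:57425160-57425409 (plus) for Tm4sf4, chr6:128143579-128143828 (minus) for Tspan9 and chr6:29693964-29694213 (plus) for Tspan33. Capitals mark matches, on either strand, to the GC box GGGCGG or to the NF-kB motif.
Cd9: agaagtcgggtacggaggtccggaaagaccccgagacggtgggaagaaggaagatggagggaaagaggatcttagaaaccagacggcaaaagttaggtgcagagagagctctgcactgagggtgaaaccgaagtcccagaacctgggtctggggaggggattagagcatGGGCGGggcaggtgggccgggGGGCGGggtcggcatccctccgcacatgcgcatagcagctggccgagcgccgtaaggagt
Cd63: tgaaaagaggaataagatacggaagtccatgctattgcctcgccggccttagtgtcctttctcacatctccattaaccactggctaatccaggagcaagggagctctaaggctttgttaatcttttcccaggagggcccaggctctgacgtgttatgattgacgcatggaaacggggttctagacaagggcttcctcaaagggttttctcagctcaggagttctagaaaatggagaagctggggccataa
Tspan17: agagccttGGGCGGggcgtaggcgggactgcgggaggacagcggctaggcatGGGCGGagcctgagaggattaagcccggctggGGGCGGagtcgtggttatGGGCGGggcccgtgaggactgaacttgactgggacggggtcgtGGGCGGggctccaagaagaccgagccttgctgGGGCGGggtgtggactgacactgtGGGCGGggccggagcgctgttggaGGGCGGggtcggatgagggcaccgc
Tm4sf4: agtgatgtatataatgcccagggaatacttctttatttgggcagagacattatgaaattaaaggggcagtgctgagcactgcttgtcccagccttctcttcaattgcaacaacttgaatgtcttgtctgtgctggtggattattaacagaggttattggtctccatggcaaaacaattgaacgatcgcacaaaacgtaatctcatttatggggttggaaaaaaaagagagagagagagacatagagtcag
Tspan9: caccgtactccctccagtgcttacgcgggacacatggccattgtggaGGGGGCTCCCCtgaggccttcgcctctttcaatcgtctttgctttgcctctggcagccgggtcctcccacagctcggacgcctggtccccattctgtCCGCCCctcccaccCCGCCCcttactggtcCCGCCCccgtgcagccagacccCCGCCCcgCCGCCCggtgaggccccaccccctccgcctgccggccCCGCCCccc
Tspan33: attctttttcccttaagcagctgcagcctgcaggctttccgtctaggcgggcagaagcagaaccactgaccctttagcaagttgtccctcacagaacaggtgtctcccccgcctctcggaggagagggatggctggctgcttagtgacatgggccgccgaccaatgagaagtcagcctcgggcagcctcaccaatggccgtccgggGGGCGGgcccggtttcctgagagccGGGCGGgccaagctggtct

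The Tspan17 window held 8 GC boxes, that of Tspan9 held 6, and those of Cd9 and Tspan33 held 2 each, while the Cd63 and Tm4sf4 windows held 0. Over all 32851 windows of this length, 32.7% held at least 1, as did 16 of the 42 windows listed for 32 of the members. The share of G and C was 70.8%, 72.0%, 61.6% and 62.4% in the windows of Tspan17, Tspan9, Cd9 and Tspan33, and 48.8% and 40.8% in those of Cd63 and Tm4sf4, where the median of all windows was 52.4%. The NF-kB motif was found in the Tspan9 window alone among the 6, as an overlapping pair of matches (7.25% of all windows, 7 of the 42). The TATA box TATAAA (12.4% of all windows), the AP-1 motif TGANTCA (6.75%), the E-box CACGTG (6.02%) and the antioxidant element TGACNNNGC (10.2%) were in none of the 6. Genes that rose thus had windows with and without GC boxes, and a match of letters is a description only.

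Of 26 genes for surface proteins that tetraspanins are known to hold, 24 were tested, 2 rose, 0 fell and 22 did not pass, beside 4.41% of all genes called higher and 2.16% lower. The median log2 fold change was 0.38, 7 of the 24 had an unadjusted p under 0.05 (24.4% of all genes), and DESeq2 called 2 and limma-voom 1. Itga6, the laminin-binding integrin chain that pairs with Cd151, rose from 6.10 and 5.83 CPM to 22.0 and 25.3 CPM (1.99 ± 0.18, adjusted p = 0.00545), and Cd44 was the other. Itgb1, the shared beta chain, was at 0.23 ± 0.15 (adjusted p = 0.415), and the immunoglobulin partners of Cd9 and Cd81, Igsf8 and Ptgfrn, were at 0.50 ± 0.17 and 0.84 ± 0.26 (adjusted p = 0.150 and 0.120). Egfr, the receptor of HB-EGF, had 546 and 765 CPM in control livers against 349 and 298 CPM after deletion and missed the threshold (-1.02 ± 0.22, adjusted p = 0.0507).

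Of 19 genes of multivesicular bodies and vesicle release, the compartment that Cd63 marks, 0 were called by edgeR (6.57% of all genes), 7 had an unadjusted p under 0.05 (24.4% of all genes), and DESeq2 called 1 and limma-voom 2. The list had a median of 0.22. The lysosomal membrane proteins Lamp1 and Lamp2, its most abundant members, were at 0.25 ± 0.17 and -0.19 ± 0.16 (adjusted p = 0.420 and 0.532). A pair of further genes of the list, chosen after their values were seen, came nearest to the threshold. Sdcbp (syntenin) was at 0.65 ± 0.14 (adjusted p = 0.0515). Smpd3, a neutral sphingomyelinase that acts in vesicle release, had 12.1 and 2.54 CPM in control livers against 35.1 and 52.7 CPM after deletion (2.57 ± 0.63, adjusted p = 0.0684).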

How the data were processed

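Raw counts for each Ensembl gene in 4 liver libraries came from a single table that the authors deposited (0 columns of other samples). Per the labels' protocols, libraries were QuantSeq 3' mRNA, read single-end on a NextSeq 550 and aligned with Bowtie2; the protocol also speaks of primary hepatocyte RNA. The submitters' processing notes name mm10 and GRCm38. How reads were counted (program, strand, reads with several matches) is not given in the sources used here. Symbols and coordinates came from GENCODE M21 (GRCm38), which matched 52029 of 56953 rows. Total counts were 16270424 to 17800138, so 3 counts equal 0.154 to 0.206 CPM.

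Groups were compared with edgeR 4.0.16 (quasi-likelihood F test, TMM, filterByExpr with a minimum count of 10 and total of 15) in R 4.3.3. The SE of a log2 fold change was taken as its size divided by the root of F. With 2 libraries against 2, an exact permutation test of 1 value cannot go below 0.333 and none was run. Alternatives were RLE factors, library sizes alone, no filter, DESeq2 1.42.0, limma-voom (limma 3.58.1), a replicate block and leaving out each library. Leaving out a library leaves 1 group without a replicate. From those fits, single genes are given with effect sizes only, and counts of called genes describe the setting and are no support. The scripts were tested on simulated counts. Members and lists were chosen with earlier results of these data known. Per-library values are given for called members and the 8 most abundant ones, and other tested members are named with their fold change. From each pathway list every called gene is named, or else the 2 most abundant; further genes of those lists were chosen after their values were seen, as were the marker sums without Spp1, without Ptprc and without Cd74 and Cybb.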

Additional observations from a re-analysis of the deposited data

How the results depend on the processing

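None of the 6 called members changed direction in any of 11 settings, and Cd9 and Cd63 kept their calls in each that used all 4 libraries. With the replicate block, members called fell from 6 to 2 (2 higher, 0 lower), ADAM10 genes from 7 to 3, surface partners from 2 to 1 and all genes from 959 to 390 (2.67%); Tm4sf4, Tspan9, Tspan33 and Tspan17 had adjusted p of 0.0595, 0.0818, 0.0736 and 0.0579. The block rests on replicate numbers that the labels do not tie to shared litters or days, and same-numbered libraries deviated with a correlation of -0.12 across genes. A crossed replicate block, chosen after seeing the data, called 6 members, 1366 genes (9.36%), 4 surface partners and 3 vesicle genes.

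Leaving out 1 library gave 2 to 8 members (2 to 6 higher, 0 to 2 lower), 343 to 2081 genes, 1 to 7 surface partners, 3 to 8 ADAM10 genes and 0 to 4 vesicle genes. Library sizes alone called 1767 genes, 7 surface partners and 5 vesicle genes. Without the filter there were 2768 genes, 2 lower members, 8 surface partners and 5 vesicle genes. DESeq2 called 1567 genes and 1 vesicle gene, and limma-voom 1 surface partner and 2 vesicle genes.

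Among the genes named with alternatives, sign changed only in uncalled ones. With library sizes alone, Tspan31, Tspan4, Tspan7, Tspan18, Tspan6 and Lamp2 were at 0.19, 0.066, 0.24, 0.012, 0.18 and 0.10. With 1 library left out, log2 fold changes spanned -0.35 to 0.10 for Tspan31, -0.66 to 0.24 for Tspan4, -0.071 to 0.34 for Cd82, -0.22 to 0.13 for Tspan7, -0.13 to 0.41 for Tm4sf1, -0.57 to 1.98 for Tspan8, -0.56 to 0.082 for Tspan18, -1.15 to 0.46 for Tspan6 and -1.22 to 0.033 for Upk1b. The cause was not tested. Members under 1 CPM rest on few counts.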
